A study of Mus musculus with 3 samples.

Results

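The genes described here are 35 mouse genes of protein folding, quality control and stress signalling in the endoplasmic reticulum (ER), picked by symbol for their known roles and not by a measured value. All 35 were among the 22068 genes with a value in each of 3 RNA-seq libraries, and 34 reached a mean of at least 1 RPKM (reads scaled to the length of the transcript and to the mapped reads of the library), as did 10172 genes in all. The gene left was Derl3, listed at 0 in every library. The libraries came from C2C12 cells, a mouse myoblast line that fuses into myotubes once serum is lowered. Linc-RAM is a long non-coding RNA of skeletal muscle, and the study asked how raising or lowering it alters gene expression during differentiation. By the study's account, the same transcript also encodes a micropeptide, myoregulin, which inhibits the calcium pump SERCA. Whether this peptide bears on the levels of the ER genes was not tested. Each stable line carried a lentivirus and was kept under blasticidin selection, and its poly(A) RNA was taken after 12 h in differentiation medium with 2% horse serum. In the overexpression line the virus carried Linc-RAM, which the study's methods place behind a CMV promoter. In the knockdown line it carried a short hairpin RNA against Linc-RAM (sh-Linc-RAM). The control line carried empty vector. The labels do not say which hairpin was sequenced, nor whether a line was 1 clone. There was 1 library per line, so a line cannot be told apart from its library, and no difference between lines has a replicate check.

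Proteins of the secretory pathway enter the ER through the translocon, where chaperones of the HSP70 and HSP90 families bind them, lectin chaperones hold those with sugar chains, and disulfide isomerases join their cysteines. Proteins that fail to fold are marked, drawn back out and degraded in the cytosol. When unfolded proteins accumulate, the sensors IRE1, PERK and ATF6 start the unfolded protein response. IRE1 splices Xbp1 mRNA, PERK slows translation and favours ATF4, and ATF6 is cleaved into a transcription factor. In muscle precursors this response is known to accompany differentiation, and collagen-producing cells also rely on the same folding machinery. A gene-level RPKM does not show Xbp1 splicing, the activity of a sensor or the amount of a protein.

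Transcription factors of this response bind the ER stress element (ERSE) and related motifs, so the promoters of the ER genes were searched for these motifs. RefSeq promoters of the GRCm38.p6 build, reaching from 250 bases before the start site to 50 after it, were held for 29 of the 35 genes. The motifs, sought on both strands, were ERSE (CCAAT, then 9 bases of any kind, then CCACG), ERSE-II (ATTGG, 1 base, CCACG), the core of the unfolded protein response element (TGACGTG) and the ATF4 element (TGATGCAA). No motif overlapped another in these promoters. ERSE was present in 9 of the 29 (31%), against 37 of 27025 promoters of all genes (0.137%). ERSE-II was present in 2 (6.9%), against 12 of all promoters (0.0444%). Of the remaining motifs, the TGACGTG core was found in 1 of the 29 (3.45%, against 2.22% of all promoters) and the ATF4 element in 1 (3.45%, against 1.03%). The shares over all promoters include the ER genes. Because these genes were picked for known roles that include the stress response, their larger ERSE shares describe the list and are not an independent finding. Each ERSE and ERSE-II site is given 5′ to 3′ along its own strand, with the fixed letters in capitals, so that the letters shared between genes can be seen beside the variable spacer.
Hspa5 ERSE (GRCm38.p6 chr2:34772025-34772043, forward strand): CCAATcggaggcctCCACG
Hsp90b1 ERSE (GRCm38.p6 chr10:86705638-86705656, reverse strand): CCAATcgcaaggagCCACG
Hsp90b1 ERSE (GRCm38.p6 chr10:86705533-86705551, forward strand): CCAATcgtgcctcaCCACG
Dnajb11 ERSE-II (GRCm38.p6 chr16:22857852-22857862, forward strand): ATTGGcCCACG
Dnajc3 ERSE (GRCm38.p6 chr14:118937827-118937845, forward strand): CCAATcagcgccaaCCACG
Calr ERSE (GRCm38.p6 chr8:84847075-84847093, forward strand): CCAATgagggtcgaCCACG
Canx ERSE (GRCm38.p6 chr11:50325800-50325818, reverse strand): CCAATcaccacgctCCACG
Pdia6 ERSE (GRCm38.p6 chr12:17266491-17266509, forward strand): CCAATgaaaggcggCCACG
Creld2 ERSE (GRCm38.p6 chr15:88819520-88819538, reverse strand): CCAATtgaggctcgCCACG
Herpud1 ERSE-II (GRCm38.p6 chr8:94386377-94386387, forward strand): ATTGGgCCACG
Syvn1 ERSE (GRCm38.p6 chr19:6046532-6046550, forward strand): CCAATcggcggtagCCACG
Derl3 ERSE (GRCm38.p6 chr10:75893242-75893260, reverse strand): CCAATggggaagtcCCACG

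The 250 bases before the start site are shown for 3 genes whose levels are described further on, with the motifs in capitals. The promoter of Hspa5, the main HSP70 chaperone, holds TGACGTG and ERSE. That of Herpud1, a degradation factor, holds the ATF4 element, read here from the opposite strand, and ERSE-II. That of Sdf2l1, a chaperone cofactor, holds none of these letter strings.
Hspa5 promoter (GRCm38.p6 chr2:34771840-34772089, forward strand): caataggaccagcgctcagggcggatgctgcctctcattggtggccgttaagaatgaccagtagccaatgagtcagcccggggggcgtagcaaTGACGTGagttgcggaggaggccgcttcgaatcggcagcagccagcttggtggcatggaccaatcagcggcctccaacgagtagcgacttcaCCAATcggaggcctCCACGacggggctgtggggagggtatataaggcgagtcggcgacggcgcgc
Herpud1 promoter (GRCm38.p6 chr8:94386179-94386428, forward strand): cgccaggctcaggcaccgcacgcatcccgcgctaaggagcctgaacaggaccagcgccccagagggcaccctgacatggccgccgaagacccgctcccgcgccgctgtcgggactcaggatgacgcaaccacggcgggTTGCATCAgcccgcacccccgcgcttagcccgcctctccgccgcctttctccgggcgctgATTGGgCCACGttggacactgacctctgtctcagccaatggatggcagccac
Sdf2l1 promoter (GRCm38.p6 chr16:17132384-17132633, reverse strand): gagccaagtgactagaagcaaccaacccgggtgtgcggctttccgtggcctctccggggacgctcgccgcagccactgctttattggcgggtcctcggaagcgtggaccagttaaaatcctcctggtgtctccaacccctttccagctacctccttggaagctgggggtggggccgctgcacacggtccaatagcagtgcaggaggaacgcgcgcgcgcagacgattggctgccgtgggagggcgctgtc

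**Figure D1:**
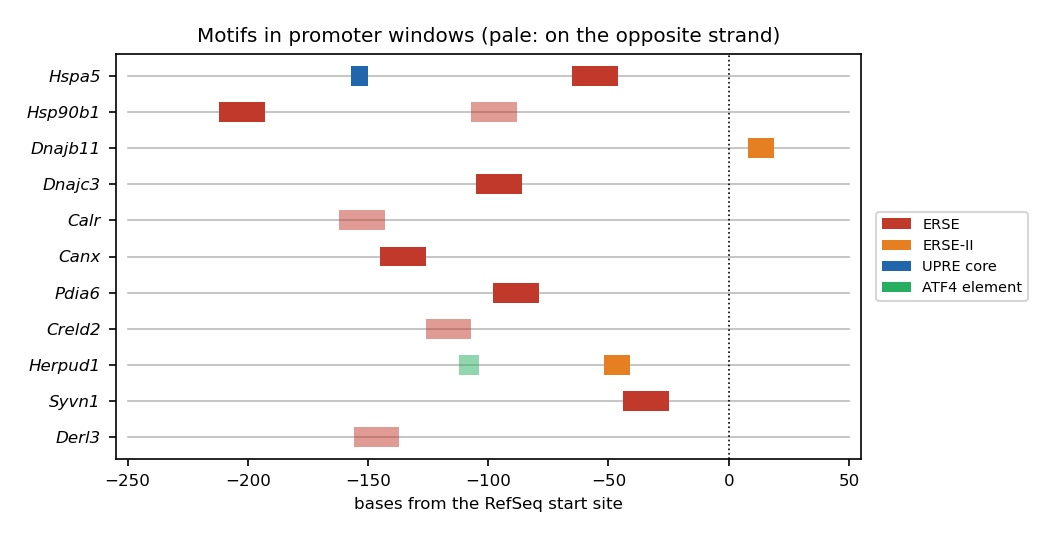
Position of each motif match (coloured blocks) in the promoter windows of the 11 ER genes that hold one, in bases from the RefSeq start site at 0. Pale blocks lie on the strand opposite to the gene, and all matches but that of Dnajb11 lie before the start site.

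As measured per kilobase, the ER genes were well expressed. Their median of mean RPKM over the libraries was 12.6, against 6.14 for all genes compared. The most abundant were Serpinh1 (444 RPKM on average), Calr (256), P4hb (221.5), Hspa5 (102) and Hsp90b1 (84.2), and the least abundant of those measured was Eif2ak3 (2.38). Together the 35 genes made up 0.821% of the summed RPKM of the overexpression library, 0.938% of the knockdown library and 1.07% of the control. Summed RPKM was 1417, 1533 and 1751 in these libraries, and 3 genes with many reads, Serpinh1, Calr and P4hb, held most of each sum. In bulk RNA of this kind, fewer cells of a type and less RNA per cell cannot be told apart.

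The libraries differed in depth. Read totals recovered from the RPKM values were 2105513 for overexpression and 1878146 for knockdown, against 5130481 for the control, and the median ER gene had 71.5, 68 and 198.5 reads. Linc-RAM itself (2310015B20Rik) was listed at 1.07 RPKM, or 1 read, in the overexpression library and at 0 in the knockdown and control libraries, so it does not check the labels. Summed RPKM of 7 markers of myogenic cells was 556 with overexpression, 213 with knockdown and 375 in the control. Des held most of each sum, at 386, 145 and 291 RPKM. With knockdown the intervals of Myod1, Des and Cdh15 lay below 1, while those of Myog, Myf5 and Chrna1 held 1. Mef2c was at 0 in the knockdown library, but had only 1 read in the control. The part of these markers in the differences below, like that of depth, was not tested. Markers of endothelial, leukocyte, epithelial and adipose cells summed to at most 2 RPKM per list and library, Ptprc, Epcam, Cdh1, Adipoq and Plin1 were at 0 in all libraries, and the 2 plasma cell markers in the files summed to at most 0.358 RPKM.

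Against the control, no ER gene reached 2-fold higher in either line, and only Sdf2l1 and Herpud1 reached 2-fold lower. A change greater than 2-fold is the criterion in the study's methods, while its heatmap legend gives a cutoff of 1.5-fold with a P limit. Counts at 1.5-fold are given further on. With overexpression, 0 of 34 were at least 2-fold higher, where 3.64% of 10165 genes were, and 2 (5.88%) were at least 2-fold lower, where 3.47% of genes were. With knockdown, 0 of 34 were at least 2-fold higher (3.38% of genes) and 1 (2.94%) was at least 2-fold lower (4.19% of genes). The share of ER genes past 2-fold was thus near that of all genes. With overexpression 24 of 34 lay below the control, as did 5040 of 10165 genes, and with knockdown 19 of 34, as did 5245 of 10165. The median log2 ratio of the ER genes was −0.10 in each line, against 0.0040 with overexpression and −0.016 with knockdown over all genes. The knockdown median was 0.032 over the 28 ER genes with a mean of at least 5 RPKM. With 1 RPKM added to every value, 0 ER genes were 2-fold lower with overexpression.

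Counting intervals show which of these ratios exceed the error of the reads. Each 95% interval is exact (Clopper-Pearson), rests on the reads of the pair of libraries compared, and covers counting error only. With overexpression the interval lay above 1 for 1 ER gene, Hsp90b1, where this held for 9.4% of all genes, and below 1 for 9 (26.5%), where it held for 8.61%. With knockdown it lay above 1 for 4 (11.8%), where this held for 8.99% of all genes, and below 1 for 11 (32.4%), where it held for 10.4%. Deeper counts give narrower intervals and the ER genes were more abundant than most, so the shares were also taken over the 4668 genes with at least 100 control reads, 27 of them ER genes. There 1 ER gene (3.7%) lay above 1 with overexpression, against 11.4% of genes, and 7 (25.9%) below, against 14.8%. With knockdown 3 (11.1%) lay above, against 11.4%, and 9 (33.3%) below, against 18.6%. Both lines are set against the same control library, so these counts are not independent of each other.

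**Figure D2:**
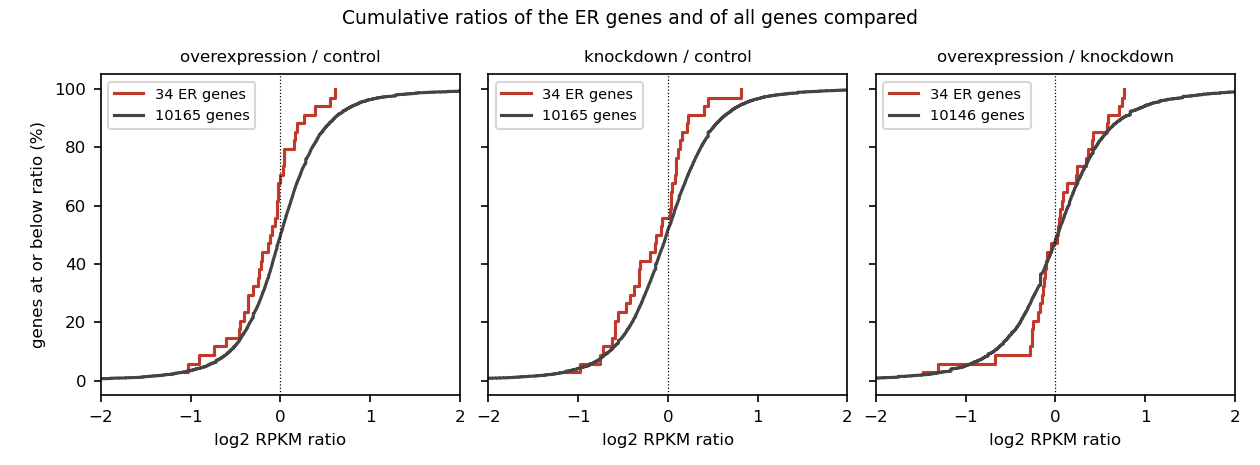
Cumulative share (vertical axis, percent) of the 34 ER genes in red and of all genes compared in grey, by log2 RPKM ratio (horizontal axis, cropped at −2 and 2). The red curve lies left of the grey curve near 0 in both comparisons with the control, where its median is −0.10, and the medians are 0.026 and 0.023 in overexpression over knockdown.

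Among the chaperones, those with the most reads differed in direction. Serpinh1 (HSP47, mm9 chromosome 7, 106493885 to 106501740), the chaperone that binds procollagen, had 368 RPKM with overexpression and 406 with knockdown, against 558 in the control, from 946, 931 and 3501 reads. It was at 0.658 of the control with overexpression (95% interval 0.612 to 0.708) and at 0.726 with knockdown (0.675 to 0.781), so both lines were lower by more than counting error. Hspa5 (BiP, mm9 chromosome 2, 34627490 to 34632051) is the HSP70 of the ER lumen, whose mRNA is a common readout of the unfolded protein response. It had 104 RPKM with overexpression and 87.5 with knockdown, against 114 in the control (571, 430 and 1530 reads). The overexpression ratio of 0.909 had an interval reaching 1 (0.825 to 1.002), while the knockdown ratio of 0.768 did not (0.688 to 0.855). Hsp90b1 (GRP94), the HSP90 of the ER, had 88.1 RPKM with overexpression and 86.8 with knockdown, against 77.6 in the control. Its ratios of 1.14 (1.02 to 1.26) and 1.12 (lower bound 1.001) were just above 1. At a 99% interval, 0 ER genes lay above 1 in either line. Hspa5 and Hsp90b1 both hold ERSE in their promoters, and whether the motif bears on their ratios was not tested.

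The cofactors of BiP had fewer reads and wider intervals. Sdf2l1 (mm9 chromosome 16, 17130231 to 17132476), which works with the DNAJ cofactors of BiP, had 5.57 RPKM with overexpression and 5.29 with knockdown, against 11.6 in the control, or 13, 11 and 66 reads. It stood at 0.480 (0.243 to 0.878) and 0.455 (0.217 to 0.869) of the control, the lowest ratio of any ER gene in each line. Both lines had nearly the same level, with an overexpression over knockdown ratio of 1.05 (0.436 to 2.599). Sil1, the nucleotide exchange factor that lets BiP release its substrate, differed between the lines, with 3.91 RPKM with overexpression, 9.71 with knockdown and 7.34 in the control (14, 31 and 64 reads). Its ratio was 0.533 with overexpression (0.276 to 0.961) and 1.32 with knockdown, where the interval held 1 (0.833 to 2.06). Manf, a secreted factor that is retained in the ER and released under stress, showed the opposite order, at 16.4 RPKM with overexpression, 10.9 with knockdown and 16.0 in the control. Its knockdown ratio was 0.679 (0.479 to 0.946), and its overexpression ratio was 1.02 (0.772 to 1.34). Hyou1, a large HSP70 relative, and the DNAJ cofactors Dnajb9, Dnajb11 and Dnajc3 ranged between 3.43 and 11.7 RPKM over the libraries, and the interval of each held 1 in both comparisons with the control.

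**Figure D3:**
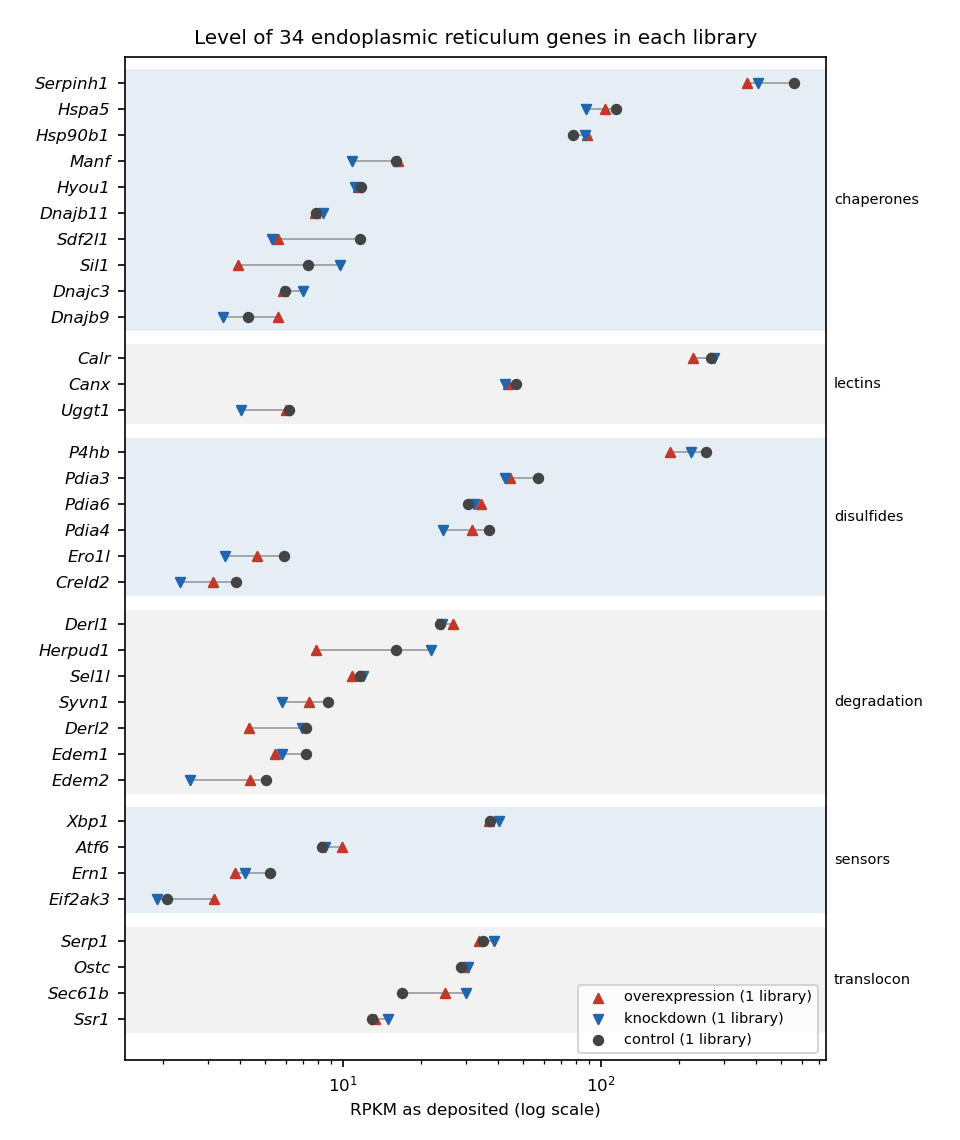
RPKM of the 34 measured ER genes (horizontal axis, log scale) in the overexpression (red triangles), knockdown (blue inverted triangles) and control (grey circles) libraries, 1 point per library, grouped by role from top to bottom. Grey lines join the lowest and highest library, which lie farthest apart for Herpud1 (7.87 to 21.9 RPKM), Sil1 and Sdf2l1.

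The lectin chaperones calreticulin and calnexin hold newly made glycoproteins, and UGGT1 returns misfolded ones to them. Calr (mm9 chromosome 8, 87365749 to 87370833), which encodes calreticulin, had 226 RPKM with overexpression and 275 with knockdown, against 268 in the control. Overexpression gave a ratio of 0.845 (0.783 to 0.911), and knockdown gave 1.03 (0.952 to 1.10). Canx, the gene of the membrane-bound calnexin, lay between 42.6 and 46.9 RPKM in all libraries, and both of its intervals held 1. Uggt1 had 5.997 RPKM with overexpression and 4.01 with knockdown, against 6.15 in the control (114, 68 and 285 reads). It was lower with knockdown, at 0.652 (0.493 to 0.852), and close to the control with overexpression, at 0.975 (0.777 to 1.22).

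Of the 6 disulfide isomerases and their oxidase, 5 lay below the control in each line, Creld2 with few reads among them. Of all genes, 5040 of 10165 lay below it with overexpression and 5245 with knockdown. Median log2 ratios of the group were −0.33 with overexpression and −0.50 with knockdown. Intervals lay below 1 for 2 of the 6 with overexpression (8.61% of all genes) and for 4 with knockdown (10.4%). P4hb (mm9 chromosome 11, 120421612 to 120434567) encodes the archetypal disulfide isomerase, which is also a subunit of the collagen prolyl 4-hydroxylase. It had 186 RPKM with overexpression and 223 with knockdown, against 256 in the control (992, 1063 and 3330 reads). The ratios were 0.726 (0.676 to 0.780) and 0.872 (0.813 to 0.935). Pdia3, the isomerase that partners calreticulin and calnexin, had 44.2 RPKM with overexpression and 42.5 with knockdown, against 56.9 in the control. It stood at 0.778 (0.671 to 0.899) and 0.748 (0.639 to 0.872), so P4hb and Pdia3 were lower in both lines by more than counting error.

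For Pdia4 and Ero1l the interval lay below 1 with knockdown and held 1 with overexpression. Pdia4, an isomerase of the BiP complex, had 31.6 RPKM with overexpression and 24.5 with knockdown, against 36.8 in the control. The knockdown ratio was 0.665 (0.454 to 0.954) and the overexpression ratio 0.859 (0.620 to 1.17). Ero1l, the oxidase that recharges the isomerases, had 4.62 RPKM with overexpression and 3.495 with knockdown, against 5.91 in the control. Its ratios were 0.782 (0.541 to 1.11) with overexpression and 0.591 (0.381 to 0.888) with knockdown, but the overexpression over knockdown ratios of both genes had intervals that held 1. Creld2, an ER stress-induced protein grouped here with the isomerases, had only 9 reads with overexpression and 6 with knockdown, against 27 in the control, too few to place its ratios. Pdia6, which also acts on the sensors, was the 1 gene of this group above the control, with 34.2 RPKM with overexpression, 32.3 with knockdown and 30.6 in the control, and both intervals held 1.

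**Figure D4:**
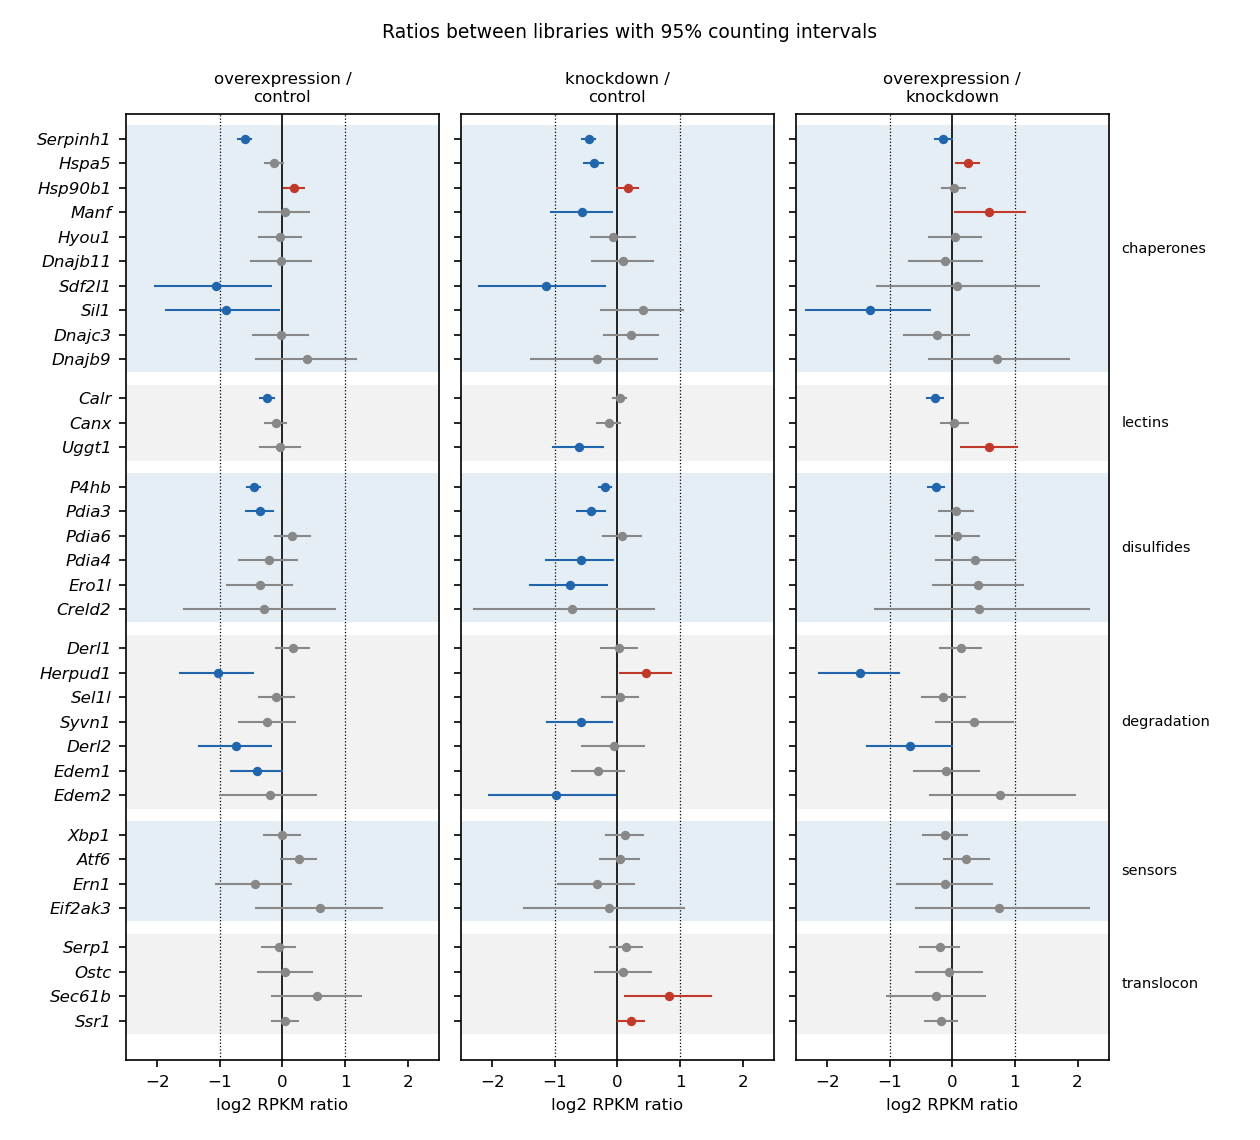
Log2 RPKM ratio (horizontal axis) of each ER gene with its exact 95% counting interval, for overexpression over control, knockdown over control and overexpression over knockdown. Red marks intervals above 1-fold (1, 4 and 3 genes), blue marks intervals below it (9, 11 and 6 genes), grey marks intervals that hold it, and dotted lines mark 2-fold.

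The degradation factors held the gene that differed most between the lines. Herpud1 (mm9 chromosome 8, 96910338 to 96919277) encodes an ER membrane protein that organises the HRD1 ubiquitin ligase complex and is among the genes most readily induced by ER stress. It had 7.87 RPKM with overexpression, 21.9 with knockdown and 16.0 in the control, from 31, 77 and 154 reads. Overexpression gave 0.490 of the control (0.322 to 0.725) and knockdown 1.37 times the control (1.03 to 1.81), so the lines lay on either side of it. Derl2, a derlin that helps draw substrates out of the ER, had 4.33 RPKM with overexpression and 6.91 with knockdown, against 7.21 in the control. Overexpression gave a ratio of 0.600 (0.397 to 0.884), and knockdown gave 0.958 (0.672 to 1.34).

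The mannosidase-like proteins EDEM1 and EDEM2 trim the sugars of misfolded glycoproteins and so commit them to degradation. Edem1 had 5.43 RPKM with overexpression and 5.82 with knockdown, against 7.19 in the control, with ratios of 0.756 (0.566 to 0.998) and 0.809 (0.602 to 1.07). Edem2 had 4.35 RPKM with overexpression and 2.55 with knockdown, against 5.01 in the control (21, 11 and 59 reads), with ratios of 0.867 (0.500 to 1.45) and 0.509 (0.241 to 0.979). Thus each of the pair passed counting error in 1 line, with an upper bound just under 1. Syvn1, the gene of the ubiquitin ligase HRD1, had 7.40 RPKM with overexpression and 5.83 with knockdown, against 8.74 in the control. It stood at 0.847 (0.615 to 1.15) with overexpression and at 0.666 (0.459 to 0.946) with knockdown. Sel1l, the partner of HRD1, and Derl1, a second derlin, lay between 10.9 and 12.001 RPKM and between 23.7 and 26.6 RPKM, and their intervals held 1. Derl3, a derlin known from secretory tissues, had no read, and 3 reads at its 1336 nt would be 1.07 RPKM with overexpression, 1.20 with knockdown and 0.438 in the control, so lower levels would not have been seen.

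Neither Xbp1 nor any of the sensors differed from the control by more than counting error in either line. Xbp1, the transcription factor gene whose mRNA IRE1 splices, had 36.9 RPKM with overexpression and 40.2 with knockdown, against 37.1 in the control. Its ratios of 0.995 (0.811 to 1.21) and 1.08 (0.881 to 1.32) had intervals on both sides of 1, which leave room for small differences either way. Ern1, the gene of IRE1, had 3.82 RPKM with overexpression and 4.15 with knockdown, against 5.196 in the control, with ratios of 0.736 (0.479 to 1.10) and 0.799 (0.517 to 1.202). Atf6 had 9.93 RPKM with overexpression and 8.49 with knockdown, against 8.28 in the control, with ratios of 1.199 (0.984 to 1.46) and 1.03 (0.824 to 1.27). Eif2ak3, the gene of PERK, rested on 15 reads with overexpression and 8 with knockdown, against 24 in the control, at 3.17, 1.89 and 2.08 RPKM. Its intervals (0.743 to 3.02 with overexpression and 0.354 to 2.10 with knockdown) are wide and leave room for a change of 2-fold or more in either line.

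The translocon and glycosylation genes were the only ER group with every member above the control in a line, 4 of 4 with knockdown and a median log2 ratio of 0.18. Of all genes, 4920 of 10165 lay above it with knockdown. Of 24 other translocon and oligosaccharyltransferase subunits, 12 lay above and 12 below. At a 99% interval, 0 ER genes lay above 1 with knockdown. Sec61b, a subunit of the translocon channel, had 24.95 RPKM with overexpression and 29.9 with knockdown, against 16.9 in the control, from 29, 31 and 48 reads. Its ratio was 1.47 (0.895 to 2.38) with overexpression and 1.76 (1.09 to 2.83) with knockdown. Ssr1, a subunit of the translocon-associated complex, was at 1.16 of the control with knockdown (1.002 to 1.34). Ostc, of the oligosaccharyltransferase, and Serp1, which steadies translocon complexes under stress, lay between 28.6 and 38.5 RPKM, and their intervals held 1.

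Set directly against each other, the overexpression and knockdown lines differed in 9 ER genes by more than counting error. The ratio of overexpression to knockdown was at least 2-fold higher for 0 of 34, where it was so for 5.83% of 10146 genes, and at least 2-fold lower for 2 (5.88%), where it was so for 5.11%. These were Herpud1, at 0.359 (0.229 to 0.552), and Sil1, at 0.403 (0.198 to 0.780). Intervals lay above 1 for 3 (8.82%, against 9.66% of all genes), namely Uggt1 at 1.495 (1.10 to 2.05), Manf at 1.51 (1.03 to 2.23) and Hspa5 at 1.18 (1.04 to 1.35). They lay below 1 for 6 (17.6%, against 8.19%), which were, besides Herpud1 and Sil1, Derl2 at 0.626 (0.389 to 0.998), Calr at 0.824 (0.753 to 0.902), P4hb at 0.832 (0.763 to 0.908) and Serpinh1 at 0.906 (0.827 to 0.993). Over genes with at least 100 control reads, 3 ER genes lay above (11.1%, against 14.5% of genes) and 5 below (18.5%, against 11.8%). The median log2 ratio was 0.026 for the ER genes and 0.023 for all genes, and 79.4% of ER genes lay within 1.5-fold, against 73.1% of all genes.

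Promoters with and without ERSE or ERSE-II were compared by the ratios of their genes. The 10 measured genes with such a site had median log2 ratios of −0.12 with overexpression and 0.057 with knockdown, with 8 of 10 below the control with overexpression and 4 of 10 with knockdown. Their intervals lay below 1 for 2 genes in each line, and above 1 for 1 gene with overexpression and 2 with knockdown. The 18 measured genes whose promoter held neither lay at a median of −0.21 with overexpression and of −0.31 with knockdown, with 14 of 18 below the control with overexpression and 13 of 18 with knockdown. Their intervals lay below 1 for 6 genes with overexpression and 8 with knockdown, and above 1 for 0 and 2. Over all genes the shares were 8.61% below and 9.4% above with overexpression, and 10.4% below and 8.99% above with knockdown. Genes with a site spanned −1.03 to 0.18 with overexpression, Herpud1 being the lowest. The difference between genes with and without a site was not tested. The matches describe letters in a window and say nothing of factor binding in these cells.

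Further genes of the pathway, listed by role, centred near the control with 2 exceptions, collagen chains being described apart. The 13 measured other disulfide isomerases and ER thioredoxins lay at a median of −0.17 with overexpression and of −0.23 with knockdown, and none was 2-fold from the control. The 22 prolyl isomerases and other folding factors had medians of −0.066 and 0.031, again with none past 2-fold. In the 24 other translocon and oligosaccharyltransferase subunits the medians were −0.11 and 0.0083, and past 2-fold were 1 higher and 1 lower gene in the overexpression line and 1 higher gene in the knockdown line. Of the 21 other degradation factors, 16 lay above the control with overexpression, unlike the degradation genes above, at a median of 0.12, and with knockdown the median was −0.021. The 21 other regulators of the unfolded protein response had medians of 0.030 and −0.12. Between the lines, Tor1a, an ATPase of the ER lumen, was 2.06 times as high with overexpression as with knockdown (1.12 to 3.97), and Wfs1, an ER membrane protein of calcium balance, 2.87 times (1.92 to 4.37).

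By their medians, the exceptions were the PERK-ATF4-CHOP list in both lines and the heat shock proteins outside the ER with overexpression. The list names rest on known roles, and the activity of PERK or CHOP was not measured. The 16 measured genes of the PERK-ATF4-CHOP list had a median log2 ratio of −0.33 with overexpression, with 0 genes 2-fold higher and 3 lower. The median was −0.73 with knockdown, with 0 higher and 5 lower. Of all genes, 3.64% were 2-fold higher and 3.47% lower with overexpression, and 3.38% higher and 4.19% lower with knockdown. Asns, the asparagine synthetase that ATF4 induces, had 2.71 RPKM with overexpression and 2.49 with knockdown, against 14.1 in the control (11, 9 and 139 reads). It stood at 0.193 (0.0941 to 0.356) and 0.177 (0.0792 to 0.346) of the control. Chac1, a glutathione-degrading enzyme and another ATF4 target, had 2.42 RPKM with overexpression and 1.36 with knockdown, against 11.3 in the control, with ratios of 0.214 (0.0898 to 0.440) and 0.120 (0.0320 to 0.318). Not every member was lower. Ppp1r15a (GADD34), which reverses the translational block of PERK, had 12.02 RPKM with overexpression and 10.3 with knockdown, against 6.60 in the control, with ratios of 1.82 (1.28 to 2.58) and 1.56 (1.05 to 2.27). Slc7a11, a cystine transporter, had 4.17 RPKM with overexpression and 2.02 with knockdown, against 2.98 in the control, and the intervals of its ratios lay above 1 with overexpression (1.05 to 1.85) and below 1 with knockdown (0.454 to 0.988). Ddit3, the gene of CHOP, had 13.6 RPKM with overexpression and 10.4 with knockdown, against 9.85 in the control, and both intervals held 1 (0.812 to 2.31 and 0.565 to 1.89). Atf4 itself was at 85.4 and 81.8 RPKM in these lines, against 108.9 in the control. Phgdh, of serine synthesis, was 2.07 times as high with overexpression as with knockdown (1.18 to 3.75).

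The 12 heat shock proteins outside the ER, all cytosolic but for the mitochondrial chaperonins Hspd1 and Hspe1, had a median log2 ratio of 0.37 with overexpression and 0.053 with knockdown. With overexpression the intervals of 8 lay above 1 (9.4% of all genes) and 0 below (8.61%). The knockdown median covers a split, with 4 intervals below 1 (10.4% of all genes) and 2 above (8.99%). Hspb1, a small heat shock protein abundant in muscle, had 368 RPKM with overexpression and 91.4 with knockdown, against 119 in the control, an overexpression ratio of 3.08 (2.76 to 3.45). Hspa1a had 21.2 RPKM with overexpression and 6.66 with knockdown, against 15.1 in the control. Hspa1b went the same way, at 41.9 and 16.5 RPKM, against 28.2. These 2 genes share near-identical sequence, so how their reads divide is uncertain. The ER chaperones, at medians of −0.031 and −0.20, lay lower than this list with overexpression, a difference that was not tested.

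**Figure D5:**
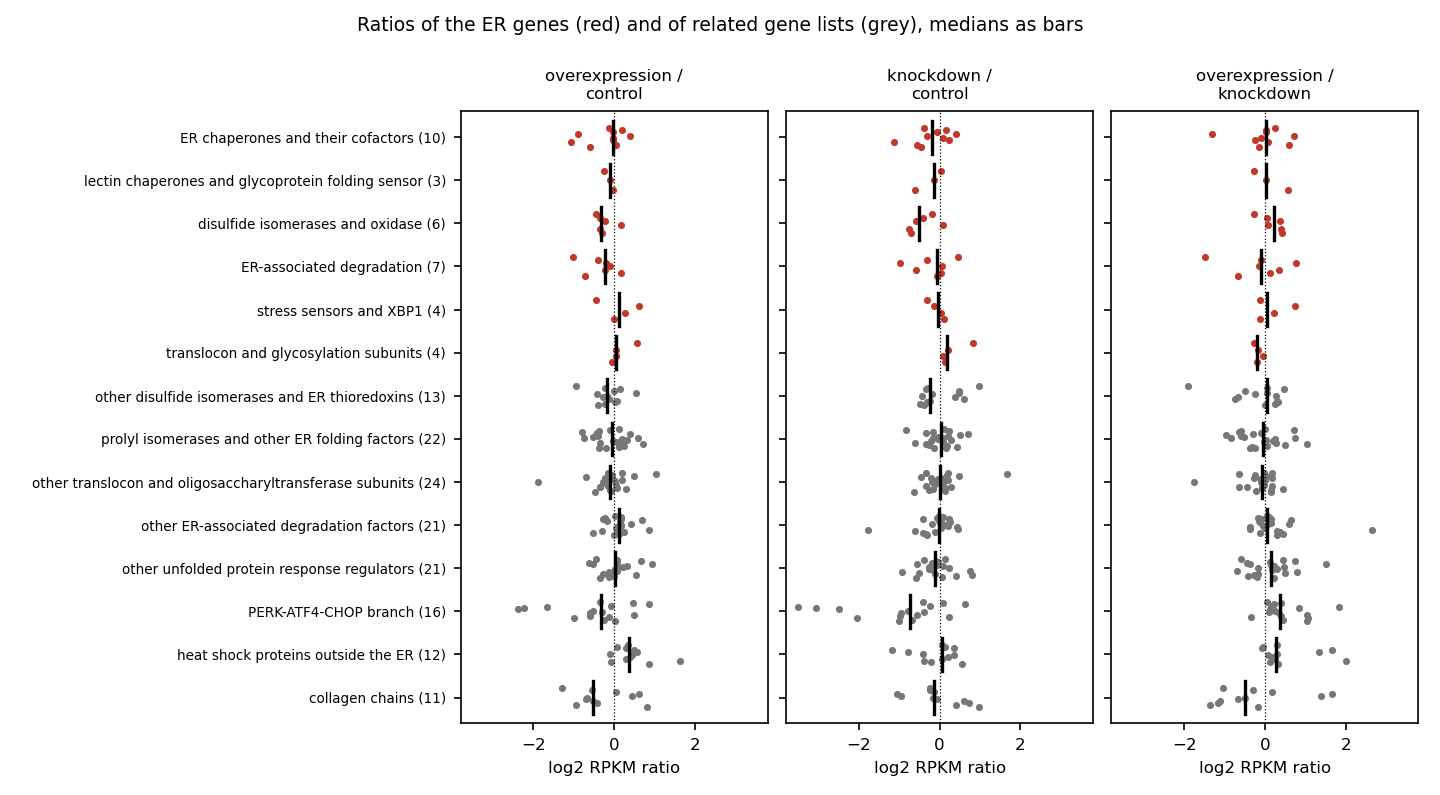
Log2 RPKM ratio (horizontal axis) of each measured gene in the 6 groups of ER genes (red) and in 8 lists of related genes (grey), with the median as a black bar and the number of genes in brackets. The PERK-ATF4-CHOP list sits at medians of −0.33 and −0.73 in the comparisons with the control, while 5 of the 6 red groups have medians within 0.25 of 0 in overexpression over control.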

How the data were processed

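The authors aligned reads to mouse mm9 with TopHat (1.4.1 per the submitters' processing notes), used DEGSeq for read coverage per gene, and deposited an RPKM value for every gene of each library. Which gene annotation and read totals they used, and how reads with several matches were treated, is not given in the sources used here. Ratios between deposited values had no pseudocount and were limited to genes averaging at least 1 RPKM.

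Read totals were recovered as the smallest total at which RPKM values of genes with few reads became whole at GENCODE transcript lengths. At these totals 61.1%, 60.2% and 59% of 1500 genes in the overexpression, knockdown and control libraries were whole, against a median of 4.4%, 4.8% and 2.13% over the totals tried. Reads per gene were then taken at an annotated length that gave whole reads in all 3 libraries within a relative tolerance of 1e-05 (24.5% of genes, 10 ER genes), and otherwise at the smallest such length from 200 nt (24 ER genes). Those reads are lower estimates, which widens the intervals. Reads were recovered for 10169 of 10172 genes. The intervals compare libraries and say nothing of spread between cultures. With 1 library per line no test between lines was possible. PCR duplicates are not marked, so reads may not be independent molecules, which would make the intervals too narrow.

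The ER genes, the other lists and the choice of comparisons were made with earlier results of these data known. Values are given in full for ER genes at least 2-fold apart in a comparison and those at least 1.25-fold apart with an interval beyond 1. The same holds for the 5 most abundant, the sensors (Ern1, Eif2ak3 and Atf6) and Xbp1, and the rest are given by range. Of each other list, up to 2 genes of largest ratio in each direction past 2-fold were named at a mean of at least 5 RPKM. Atf4, Ddit3, Ppp1r15a, Slc7a11 and Hspa1b were added after their values were seen. Gene positions are those of GENCODE on mm9, and promoters are those of RefSeq on GRCm38.p6, where Ero1l was matched as Ero1a. Protein sequences were not analysed here. Recovery of totals and reads was tested on simulated data with annotated lengths and counting error only. The ratios and intervals were tested there on the simulated reads and totals themselves, so intervals from recovered reads were not tested. Alternatives were another filter, 1 RPKM added, other scalings, a 1.5-fold threshold and a 99% interval, with a minimum of 100 control reads added after the data were seen. Calculations ran in Python 3.11.15 with scipy 1.17.1, pandas 2.3.3 and numpy 2.4.6, and plots in matplotlib 3.10.9.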

Additional observations from a re-analysis of the deposited data

How the results depend on the processing

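With 1 RPKM added to every value, 0 ER genes were at least 2-fold lower with overexpression than in the control, since Sdf2l1 and Herpud1 were barely past 2-fold (log2 ratios of −1.06 and −1.03) and came to −0.94 each. At a 1.5-fold threshold, 1 gene was higher and 5 were lower with overexpression, and 1 was higher and 7 were lower with knockdown. In overexpression over knockdown 4 were higher and 3 lower. Within 1.5-fold of the control lay 82.4% of ER genes with overexpression and 76.5% with knockdown, against 79.9% and 77.3% of all genes. With both directions pooled, the shares past 1.5-fold were thus near those of all genes. Shares of all genes by direction were not taken at 1.5-fold, so the excess of lower over higher ER genes has no background there. At a 99% interval, 0 genes lay above 1 in either line and 6 lay below 1 with knockdown. Over the 28 ER genes with a mean of at least 5 RPKM, the median log2 ratio was 0.032 with knockdown and −0.075 in overexpression over knockdown, each with the sign opposite to that over all 34. With RPKM divided by the library's sum, the medians were −0.18 in overexpression over control and −0.054 in overexpression over knockdown, the second again with its sign turned. Of the remaining values under these settings, the counts stayed within 1.5 times those reported, and all 198 of single genes lay within the 95% interval of the ratio reported. With ratios divided by the median ratio of all genes, 10 ER genes lay below 1 with overexpression, against 9. Intervals were not retaken with RPKM divided by the sum. Calls with a bound near 1, such as those of Hsp90b1 and Hspa5 with overexpression, may therefore differ at that scaling. Depth limits the genes with few reads, above all Creld2, Eif2ak3, Sdf2l1, Edem2 and Sil1. No paired analysis was possible because each line has 1 library.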

Other observations

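Collagen chains, the clients of the procollagen chaperone Serpinh1, did not share 1 direction. The 11 measured chains had median log2 ratios of −0.52 with overexpression and −0.14 with knockdown. Col1a1, a chain of the main fibrillar collagen, had 32.05 RPKM with overexpression and 65.7 with knockdown, against 78.2 in the control, an overexpression ratio of 0.410 (95% counting interval 0.363 to 0.462). The basement membrane chain Col4a1 had 19.7 RPKM with overexpression and 6.20 with knockdown, against 12.9 in the control. Unlike Col1a1, it lay above the control with overexpression, while both chains lay below the control with knockdown. The Col4a1 knockdown ratio was 0.481 (0.373 to 0.614), and overexpression was 3.17 times knockdown (2.46 to 4.14). Col4a2 followed at 2.63 times (2.10 to 3.33). Col12a1, a chain that binds fibrils, and Col6a2, of microfibrils, were lower in overexpression than in knockdown, at 0.391 (0.348 to 0.439) and 0.449 (0.370 to 0.542). Whether the collagen levels bear on those of Serpinh1 and P4hb was not tested.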
